A study of Mus musculus with 6 samples.

Results

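Sod1 is the mouse gene of the copper and zinc superoxide dismutase, and its RNA was followed through single cells of spinal cords from mice with a SOD1-G93A transgene and from wild-type mice. The measurement is the single row named Sod1, 1 of 17042 genes present in all 6 tables, and it was chosen by name. Any transgene RNA that was counted shares this row with RNA of the mouse gene, so the row holds their sum. It was read in cells retained after filtering, in marker-defined cell classes and in the barcodes that the filters left out.

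There were 3 groups of 2 libraries each. The SOD1-Nec libraries came from SOD1-G93A mice given Necrostatin-1s, which blocks the kinase RIPK1, the SOD1-Veh libraries from SOD1-G93A mice given vehicle, and the WT-Veh libraries from wild-type mice given vehicle. The tissue was spinal cord, dissociated with Accutase and cleared of myelin, and live cells were taken from an OptiPrep gradient. The labels name the allele and the drug but not the age, sex, dose, promoter or copy number, nor whether both libraries of a group came from different animals. The p-values below therefore measure the spread between these libraries, which may be technical. In edgeR, the main test used, the spread of a gene is estimated with help from all genes of the fit. A small p-value thus does not rest on the spread of Sod1 between 2 libraries a group alone. The method was Drop-seq, which captures single cells in droplets and counts RNA molecules by unique molecular identifiers (UMIs).

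Superoxide dismutase 1 turns superoxide into hydrogen peroxide and oxygen in the cytosol of nearly every cell, so no cell class of the cord is known to lack its RNA. The enzyme takes its copper from a chaperone encoded by Ccs. Mutations in the human gene cause familial amyotrophic lateral sclerosis, and mice with many copies of the mutant human gene lose motor neurons although their own Sod1 is intact. Red cells are among the rich sources of the enzyme.

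The mouse counterpart of the mutated position is shown because it is where the labelled allele differs from the normal enzyme, although UMI counts per gene do not read it. In GENCODE M21 on build GRCm38 the coding transcript lies on chromosome 16, plus strand, from 90220754 to 90226329, in 5 exons. The printed stretch is coding sequence of exon 4 at chr16:90225164-90225208, and the capitals mark the glycine codon of residue 93, counted without the initiator methionine.
Mouse Sod1, codon 93: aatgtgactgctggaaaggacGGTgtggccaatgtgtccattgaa
These coordinates are not those of mm9, the build that the submitters' processing notes name.

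Retained cells had at least 200 detected genes and at most 20% mitochondrial UMIs, with called doublets removed, and numbered 3331 of 21919 barcodes. They were 658 and 791 in SOD1-Nec, 395 and 430 in SOD1-Veh, and 508 and 549 in WT-Veh. Their median depth was 527 and 524 UMIs in SOD1-Nec, 727 and 699.5 in SOD1-Veh, and 655 and 576 in WT-Veh. Pairs of libraries shared 4 to 9 cell barcodes over all barcodes and 0 to 2 among those with at least 200 genes. A single barcode of SOD1-Nec 1 stood apart with 43509 UMIs and an ambiguous base in its sequence, and it carried 227 Sod1 UMIs. Skeletal muscle genes made up 0.967% and 1.86% of retained UMIs in the SOD1-Veh libraries and at most 0.00169% in the other 4.

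The first comparison asks how far the counted Sod1 level of mutant cells lay above that of wild-type cells. How much of any transgene RNA the row counts is not known. The fold changes here and below are thus of counts, not of the RNA that the cells carried. Over all retained cells Sod1 was at 3824 and 4359 CPM (Sod1 UMIs per 1000000 UMIs) in SOD1-Nec, 4169 and 5547 in SOD1-Veh, and 248 and 179 in WT-Veh. These levels rest on 2031 and 2836 Sod1 UMIs in SOD1-Nec, 1792 and 2576 in SOD1-Veh, and 138 and 90 in WT-Veh. All 4 mutant libraries lay far above both wild-type libraries. In the quasi-likelihood test of edgeR, SOD1-Nec was 19.1-fold above WT-Veh (log2 fold change 4.26 ± 0.33 SE, adjusted p = 2.64e-05). SOD1-Veh was 23.5-fold above WT-Veh in the same test (4.55 ± 0.33, adjusted p = 2.15e-06). Both comparisons share the WT-Veh libraries. Adjusted over 7482 genes, 0.0401% of genes passed for SOD1-Nec against WT-Veh and 0.842% for SOD1-Veh against WT-Veh. Sod1 ranked 1 by p in the former and 6 in the latter. The SOD1-Veh sums hold 16 and 47 skeletal muscle cells, a class that no other group had. Their share of genes called can thus not be assigned to genotype alone. Without the deepest barcode, SOD1-Nec 1 was at 3699 CPM. With at least 100 genes per barcode in place of 200, SOD1-Nec over WT-Veh was 5.01 on the log2 scale. The tables numbered 1 and those numbered 2 list different gene sets, and within them the log2 ratio was 3.87 and 4.69 for SOD1-Nec over WT-Veh, and 4.03 and 5.09 for SOD1-Veh over WT-Veh. The mix of cell types, given below, also differed between libraries, with 33 neurons in WT-Veh 1 and 162 in WT-Veh 2. Its part in these pooled levels and ratios was not tested.

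Clusters were formed without Sod1 and named from marker genes, and 16 of 17 clusters fell into 12 classes. The cells included blood and marrow types as well as cord cells. Microglia, the resident macrophages of the cord, were 670 cells in 2 clusters that each had all 13 microglial markers raised; the larger cluster was led by the immediate-early and chemokine genes Ccl3, Ccl4, Jun and Atf3. The astrocyte class, cells that support neurons, had all 9 astrocyte markers raised and also all 5 markers of oligodendrocyte precursors. The endothelial class had 6 of 8 endothelial markers raised and 4 fibroblast markers as well. The unnamed cluster held 30 cells and was led by class II antigen presentation genes and Cd209a. All class names stand for such marker-based, cell-like groups.

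In each mutant library Sod1 was highest in erythroid cells and in oligodendrocytes, the myelin-forming cells. Among classes with at least 20 cells in every library it was lowest in neutrophils and next lowest in microglia. Erythroid cells, the precursors of red cells, were at 6610 and 8090 CPM in SOD1-Nec, 9452 and 10066 in SOD1-Veh, and 214 and 213 in WT-Veh. Oligodendrocytes were at 5808 and 7235 CPM in SOD1-Nec, 8229 and 10366 in SOD1-Veh, and 464 and 129 in WT-Veh. These classes overlapped each other in the mutant libraries, and the wild-type libraries set oligodendrocytes both above and below erythroid cells. Their SOD1-Nec libraries were the lower ones in both classes.

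Astrocytes and B cells came below these classes in the mutant libraries. Astrocytes were at 3561 and 3661 CPM in SOD1-Nec, 4018 and 5140 in SOD1-Veh, and 144 and 412 in WT-Veh. B cells were at 2480 and 2883 CPM in SOD1-Nec, 2686 and 3913 in SOD1-Veh, and 320 and 131 in WT-Veh. The ranges of these 2 classes overlapped among the mutant libraries. T or NK cells, which are cytotoxic and helper lymphocytes, were at 5536 and 3002 CPM in SOD1-Nec, 3028.5 and 5651 in SOD1-Veh, and 726 and 133 in WT-Veh, on 12 to 32 cells a mutant library. Endothelial cells, the lining of vessels, were at 2754 and 3684 CPM in SOD1-Nec, 2016 and 7578 in SOD1-Veh, and 170 and 265 in WT-Veh, on 6 to 21 cells a library. In both classes the libraries of at least 1 mutant group lay far apart, so these values give neither class a place in the order.

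Among classes with at least 20 cells in every library, the myeloid classes had the lowest Sod1 CPM in each mutant library. Monocytes and B cells were not told apart in the test given below. Neurons, on few cells, were below monocytes in each mutant library. Monocytes were at 2360 and 2780 CPM in SOD1-Nec, 2052 and 2984 in SOD1-Veh, and 468 and 332 in WT-Veh. Microglia were at 1834 and 1900 CPM in SOD1-Nec, 1857 and 1668 in SOD1-Veh, and 97.1 and 122 in WT-Veh. Neutrophils, short-lived cells that kill microbes, were at 1235 and 1414 CPM in SOD1-Nec, 988 and 1594 in SOD1-Veh, and 120 and 47.5 in WT-Veh. Microglia kept within 1668 to 1900 CPM across the 4 mutant libraries. In each of these classes every mutant library lay above both wild-type libraries.

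The other classes rest on few cells in at least 1 group. Ependymal cells, the ciliated lining of the central canal, were at 5276 and 6475 CPM in SOD1-Nec, 4045 in SOD1-Veh 1, and 659 and 923 in WT-Veh, and SOD1-Veh 2 held no such cell. Their wild-type levels rest on 4 and 12 Sod1 UMIs. The deepest barcode fell in this class, and without it SOD1-Nec 1 was at 5465 CPM on 54 UMIs. Neurons, in a cluster led by Snhg11, Miat and Ryr2, numbered 24 and 8 in SOD1-Nec, 13 and 5 in SOD1-Veh, and 33 and 162 in WT-Veh. The high wild-type number came from WT-Veh 2, and these numbers do not measure a loss of neurons in the cord. The Sod1 level of neurons was 2280 and 644 CPM in SOD1-Nec, 1838 and 2501 in SOD1-Veh, and 66.6 and 140 in WT-Veh. The value of SOD1-Nec 2 rests on 2 UMIs and has an exact 95% Poisson interval of 78.0 to 2327 CPM. Skeletal muscle cells occurred in SOD1-Veh only, at 2764 and 2760 CPM on 16 and 47 cells. The unnamed cluster was at 2010 and 4315 CPM in SOD1-Nec, 2033 and 1775 in SOD1-Veh, and 977 and 0 in WT-Veh, where 2 cells gave no Sod1 UMI and the interval reached 1040 CPM.

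**Figure D1:**
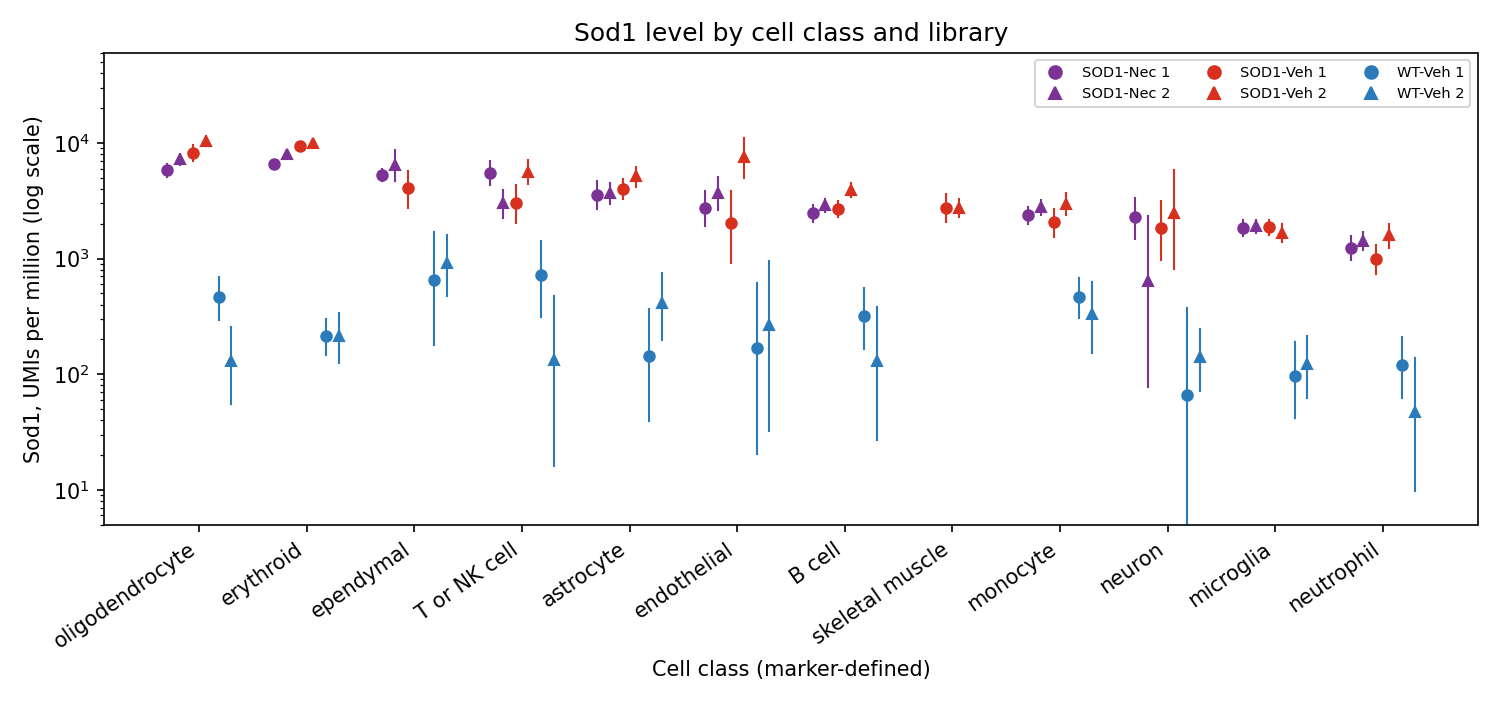
Sod1 level in CPM (log scale) by marker-defined class, 1 point a library with its exact 95% Poisson interval, which covers counting error only and is cut at the axis for neurons of WT-Veh 1. Mutant libraries lie above wild-type libraries within every class that has both, at up to 10366 CPM in oligodendrocytes and down to 644 CPM in neurons of SOD1-Nec 2.

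Erythroid cells gave the largest part of the Sod1 UMIs of every library among the named classes. They were 16.3% and 16.8% of retained cells in SOD1-Nec, 11.9% and 14.0% in SOD1-Veh, and 13.2% and 7.29% in WT-Veh. Their part of all retained Sod1 UMIs was 39.6% and 51.9% in SOD1-Nec, 52.7% and 51.9% in SOD1-Veh, and 23.9% and 18.9% in WT-Veh. Microglia were 18.1% to 23.8% of retained mutant cells and gave 4.62% to 10.6% of the Sod1 UMIs. Retained cells are what the dissociation and the filters kept, so these shares are not those of the cord.

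The order of classes was tested over 24 sums of UMIs, 6 classes in each of the 4 mutant libraries, with the library as a term. Erythroid cells were 2.71 ± 0.15 (SE) above the mean of the other classes on the log2 scale (edgeR, adjusted p = 2.09e-23). In that comparison 48% of the 1677 genes tested passed, and Sod1 ranked 19 by p. Neutrophils gave −0.91 ± 0.19 against the mean of the others (edgeR, adjusted p = 0.000102), with 36% of genes past the test. Microglia gave −0.80 ± 0.18 (edgeR, adjusted p = 0.000239), with 40.7% of genes past the test. A call between cell classes was thus common among all genes. With erythroid cells left out and an estimate of free RNA subtracted, microglia gave −0.31 (edgeR, adjusted p = 0.103) and neutrophils −0.49 (adjusted p = 0.0146).

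The size of most of these differences depended on how the sums were scaled. With plain totals in place of the TMM factors of edgeR, erythroid cells gave 1.85 and neutrophils −1.40, while microglia stayed at −0.81. The smaller differences gained or lost their call in this way. Monocytes gave −0.77 ± 0.19 (edgeR, adjusted p = 0.000837, 35.2% of genes past the test), and −0.24 with an adjusted p of 0.323 when plain totals replaced the TMM factors of edgeR. B cells gave −0.44 ± 0.18 (edgeR, adjusted p = 0.0479, 37.1% of genes past the test), and 0.02 with an adjusted p of 0.976 on plain totals. The B cell call was also lost when any 1 of the 4 libraries was left out, at −0.45 to −0.35. Astrocytes gave 0.20 ± 0.18 (edgeR, adjusted p = 0.386, 42.6% of genes past the test), and 0.57 with an adjusted p of 0.00913 on plain totals. The change of scaling moved the median of all genes as well, by −0.76 in the erythroid comparison, 0.51 in monocytes, 0.43 in B cells, 0.35 in astrocytes and −0.49 in neutrophils. Relative to that median, Sod1 stood at 2.90 with TMM factors and 2.80 on totals in erythroid cells, −0.81 and −0.79 in monocytes, −0.41 and −0.39 in B cells, and 0.65 and 0.67 in astrocytes.

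Neighbouring classes were then compared, in the order of their mean Sod1 levels in these same sums. The direction of each step thus followed from the order and is no result. Between neighbours in this fit, which left out oligodendrocytes, erythroid cells exceeded astrocytes by 2.09 ± 0.23 (edgeR, adjusted p = 5.83e-11, 41.1% of genes past the test). The step between astrocytes and B cells was 0.53 ± 0.23, with an adjusted p of 0.0559 in edgeR, and 44% of genes passed there. B cells and monocytes differed by 0.28 ± 0.23 (edgeR, adjusted p = 0.405, 27.3% of genes past the test). Monocytes and microglia differed by 0.03 ± 0.23, with a 95% interval of −0.43 to 0.49 (edgeR, adjusted p = 0.943, 37.9% of genes past the test). Microglia and neutrophils differed by 0.09 ± 0.23, with an interval of −0.38 to 0.56 (edgeR, adjusted p = 0.797, 44.1% of genes past the test).

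Oligodendrocytes had 17 cells in SOD1-Veh 1 and entered a second fit that admitted classes with at least 15 cells in every library, a rule added after the cell numbers were seen. They were 1.27 ± 0.16 above the mean of the other classes (edgeR, adjusted p = 3.81e-10, 44.9% of genes past the test). They were 1.16 ± 0.24 above astrocytes (edgeR, adjusted p = 8.89e-05), where 19.3% of genes passed. Against erythroid cells they gave −1.04 ± 0.23 (edgeR, adjusted p = 6.42e-05, 48.1% of genes past the test). The plain CPM of these classes overlapped, and the TMM factors of the erythroid sums, 0.472 to 0.752, raise erythroid levels in the fit.

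Each class was then compared between genotypes, and in 7 classes both mutant groups were called above WT-Veh. In microglia, SOD1-Nec was 17.0-fold above WT-Veh (log2 4.09 ± 0.32 SE, edgeR, adjusted p = 8.51e-15), with 3.9% of 1719 genes past the test. SOD1-Veh was 15.7-fold above WT-Veh there (3.98 ± 0.32, edgeR, adjusted p = 3.67e-14, 1.4% of genes past the test). Within the tables numbered 1 and those numbered 2 the log2 ratio was 4.26 and 3.99 for SOD1-Nec over WT-Veh, and 4.21 and 3.82 for SOD1-Veh over WT-Veh. The microglial differences between genotypes were thus alike in both sets of tables and with either mutant group.

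In erythroid cells, SOD1-Nec was 24.2-fold above WT-Veh (4.60 ± 0.28, edgeR, adjusted p = 6.68e-07), with 1.65% of 1337 genes past the test. SOD1-Veh was 42.8-fold above WT-Veh (5.42 ± 0.29, edgeR, adjusted p = 1.11e-07), and Sod1 was the only gene called, which is 0.0748% of the genes. The within-set log2 ratios were 4.59 and 4.52 for SOD1-Nec over WT-Veh, and 5.64 and 5.13 for SOD1-Veh over WT-Veh. Haemoglobin, the oxygen carrier of red cells, made up 37.1% and 39.8% of erythroid UMIs in SOD1-Nec, 57.0% and 51.0% in SOD1-Veh, and 53.4% and 61.5% in WT-Veh. With haemoglobin UMIs taken out, the erythroid Sod1 level was 10506 and 13431 CPM in SOD1-Nec, 21976 and 20558 in SOD1-Veh, and 459 and 553 in WT-Veh. The part of the haemoglobin share in these fold changes was not tested beyond leaving those genes out of the fit, which gave 4.66 for SOD1-Nec and 5.44 for SOD1-Veh over WT-Veh. With at least 100 genes per barcode in place of 200, those values were 5.57 and 6.26.

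In oligodendrocytes, SOD1-Nec was 25.2-fold above WT-Veh (4.65 ± 0.39, edgeR, adjusted p = 2.57e-11, 1.48% of genes past the test). SOD1-Veh was 32.3-fold above WT-Veh (5.01 ± 0.40, edgeR, adjusted p = 3.49e-12, 0.843% of genes past the test). The WT-Veh libraries differed from each other here, at 464 and 129 CPM, and the fold rests on which of them is used. Without WT-Veh 1 the log2 values were 5.79 for SOD1-Nec and 6.13 for SOD1-Veh, and without WT-Veh 2 they were 3.99 and 4.32.

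In astrocytes, SOD1-Nec was 11.5-fold above WT-Veh (3.52 ± 0.46, edgeR, adjusted p = 0.000549, 2.44% of 409 genes past the test). SOD1-Veh was 14.3-fold above WT-Veh (3.84 ± 0.45, edgeR, adjusted p = 0.000162, 6.36% of genes past the test). The wild-type side held 4 and 10 Sod1 UMIs. The make-up of the class differed between the groups. The 9 astrocyte markers made up 1.26% and 1.41% of its UMIs in SOD1-Nec, 1.44% and 1.38% in SOD1-Veh, and 2.71% and 2.44% in WT-Veh. The 5 markers of oligodendrocyte precursors made up 0.233% and 0.257% in SOD1-Nec, 0.195% and 0.226% in SOD1-Veh, and 0.0974% and 0.0576% in WT-Veh, where Pdgfra, Cspg4 and Olig2 were at 0 in WT-Veh 2. Each list kept the mutant and wild-type libraries apart, and the part of this make-up in the Sod1 differences was not tested. Without WT-Veh 1 the log2 values were 2.77 for SOD1-Nec and 3.09 for SOD1-Veh, and without WT-Veh 2 they were 4.52 and 4.87.

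B cells of SOD1-Nec were 12.03-fold above WT-Veh (3.59 ± 0.43, edgeR, adjusted p = 5.47e-06, 0.61% of 1148 genes past the test). Those of SOD1-Veh were 13.6-fold above WT-Veh (3.77 ± 0.43, edgeR, adjusted p = 3.88e-06, 0.348% of genes past the test). Without WT-Veh 1 both calls were lost, at log2 values of 4.61 with an adjusted p of 0.0757 for SOD1-Nec and 4.77 with an adjusted p of 0.0560 for SOD1-Veh (edgeR). The differences were larger in that fit, and it held a single wild-type library, assumed to vary like the other groups.

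Neutrophils of SOD1-Nec were 15.02-fold above WT-Veh (3.91 ± 0.42, edgeR, adjusted p = 4.71e-05), and those of SOD1-Veh 13.9-fold (3.79 ± 0.43, edgeR, adjusted p = 9.61e-05). Sod1 was the only gene of 868 called in each of these comparisons, which is 0.115% of genes. Without WT-Veh 1 the log2 values were 4.77 for SOD1-Nec and 4.61 for SOD1-Veh. Monocytes gave the smallest fold changes of the 7 classes. SOD1-Nec monocytes were 6.45-fold above WT-Veh (2.69 ± 0.31, edgeR, adjusted p = 8.53e-06), where Sod1 was the only gene called, 0.11% of 908. SOD1-Veh monocytes were 6.05-fold above WT-Veh (2.60 ± 0.32, edgeR, adjusted p = 1.80e-05, 0.991% of genes past the test). The comparisons with WT-Veh share its libraries within each class, so the 2 mutant groups are not independent of each other there.

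**Figure D2:**
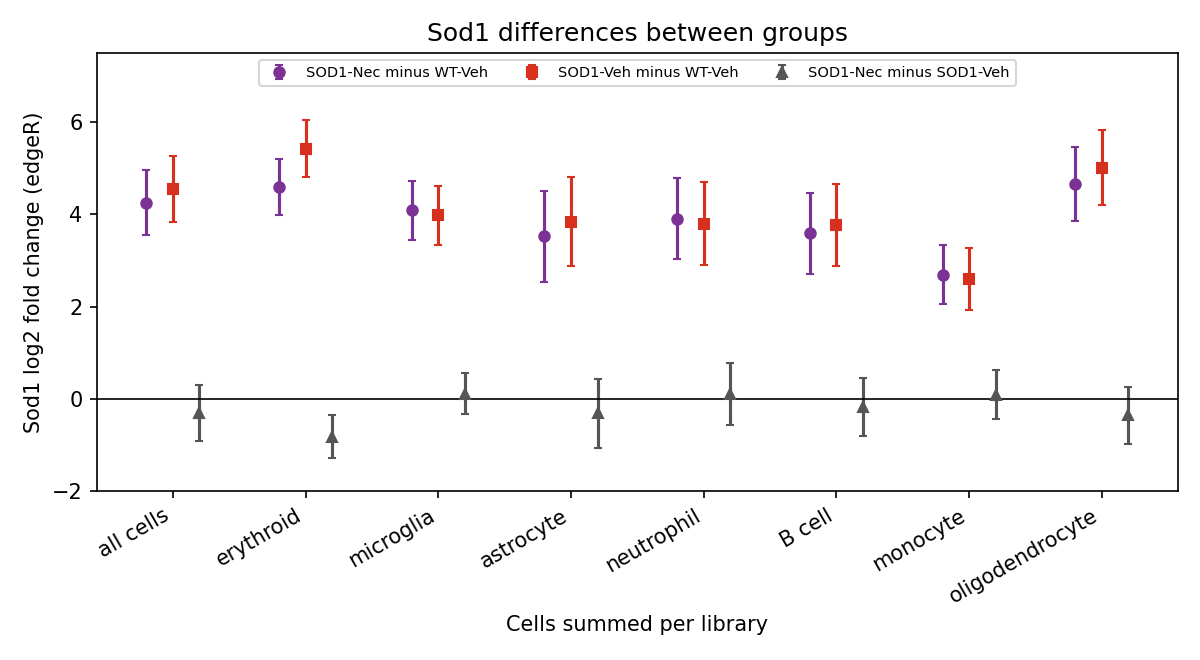
Sod1 log2 fold change (y axis) with its 95% interval from edgeR over all retained cells and in 7 classes, for SOD1-Nec over WT-Veh, SOD1-Veh over WT-Veh and SOD1-Nec over SOD1-Veh. Both mutant groups lie between 2.60 and 5.42 above WT-Veh, and the interval of SOD1-Nec against SOD1-Veh includes 0 everywhere but in erythroid cells.

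The classes with few cells were compared by the ratio of summed counts, whose exact 95% intervals cover counting error only. The ratio of SOD1-Nec to WT-Veh was 10.5 (5.52 to 22.4) in T or NK cells, 15.3 (5.72 to 57.5) in endothelial cells, 6.45 (3.91 to 11.4) in ependymal cells and 14.9 (7.43 to 31.5) in neurons. The ratio of SOD1-Veh to WT-Veh was 11.7 (6.11 to 25.2) in T or NK cells, 21.7 (7.76 to 83.7) in endothelial cells, 4.82 (2.56 to 9.44) in ependymal cells and 15.4 (7.14 to 34.2) in neurons. All of these lay above 1, and the intervals were too wide to order the classes.

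Whether the genotype difference varied between classes was tested directly over 36 sums, 6 classes in all 6 libraries, with the mutant groups pooled. The joint test of the class terms gave F = 4.78 and an adjusted p of 0.0562 in edgeR, where 0.54% of 2964 genes passed and Sod1 ranked 17 by p. Sod1 missed the threshold over all genes, though it passed without SOD1-Nec 2 (adjusted p = 0.0368) and without SOD1-Veh 2 (adjusted p = 0.0394). The genotype effect in erythroid cells exceeded that in the other classes by 1.59 ± 0.40 on the log2 scale (edgeR, adjusted p = 0.0722, 0.101% of genes past the test). Monocytes gave −1.39 ± 0.44 (edgeR, adjusted p = 0.566), and 0% of genes passed in edgeR there, with 115 at an unadjusted p below 0.05 and no other tool run.

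For the other classes the class-specific genotype effect was small beside its error. It was 0.23 ± 0.45 in microglia, where 0.0337% of genes passed, and −0.26 ± 0.53 in astrocytes, where 0.81% passed. B cells gave −0.04 ± 0.53, with 0.135% of genes past the test. Neutrophils gave −0.13 ± 0.56, with 0% of genes past the test and 133 at an unadjusted p below 0.05. All 4 adjusted p-values of Sod1 were 1 in edgeR. Without WT-Veh 1 the joint F was 1.98 (edgeR, adjusted p = 0.983). With SOD1-Veh alone against WT-Veh it was 6.43 (edgeR, adjusted p = 0.00135), and the erythroid excess was 1.98 (adjusted p = 0.00354).

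Expressed against the microglia of the same library, erythroid cells had 3.60 and 4.26 times the Sod1 CPM in SOD1-Nec, 5.09 and 6.03 times in SOD1-Veh, and 2.20 and 1.75 times in WT-Veh. Every mutant library had a higher erythroid ratio than both wild-type libraries. Monocytes had 1.29 and 1.46 times the microglial level in SOD1-Nec, 1.10 and 1.79 times in SOD1-Veh, and 4.82 and 2.73 times in WT-Veh, so the wild-type libraries were the higher ones there. Oligodendrocytes had 3.17 and 3.81 times the microglial level in SOD1-Nec, 4.43 and 6.21 in SOD1-Veh, and 4.78 and 1.06 in WT-Veh, with overlapping groups.

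The erythroid class consisted of 2 clusters that differed in haemoglobin. One, of 236 cells, was led by Car1, Hemgn, Aqp1 and Klf1, the last a transcription factor of early red cell genes, and the other, of 218 cells, by Rsad2, Tmcc2, Bpgm and Xpo7, with Hba-a2 and Alas2 among its top 10 genes. Haemoglobin made up 51.0% and 56.2% of the UMIs of the Bpgm cluster in SOD1-Nec, 75.0% and 72.6% in SOD1-Veh, and 72.3% and 76.2% in WT-Veh. In the Klf1 cluster it made up 30.5% and 29.5% in SOD1-Nec, 40.3% and 37.2% in SOD1-Veh, and 36.3% and 29.1% in WT-Veh. Every library had the higher haemoglobin share in the Bpgm cluster.

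Between these clusters the mutant and the wild-type libraries differed in order. In the Bpgm cluster it was at 7637 and 9428 CPM in SOD1-Nec, 11136 and 10102 in SOD1-Veh, and 81.9 and 36.3 in WT-Veh. In the Klf1 cluster it was at 6128 and 7249 CPM in SOD1-Nec, 7897 and 10043 in SOD1-Veh, and 333 and 603 in WT-Veh. The ratio of the Bpgm to the Klf1 cluster was 1.25 and 1.301 in SOD1-Nec, 1.41 and 1.01 in SOD1-Veh, and 0.246 and 0.0602 in WT-Veh. With haemoglobin UMIs taken out, this ratio was 1.77 and 2.09 in SOD1-Nec, 3.37 and 2.31 in SOD1-Veh, and 0.566 and 0.179 in WT-Veh. All 4 mutant libraries lay above 1 and both wild-type libraries below it on either scale.

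The wild-type level of the Bpgm cluster rests on 6 and 2 UMIs in 38 and 25 cells. The ratio of summed counts there was 141 (exact 95% interval 71.3 to 328) for SOD1-Nec over WT-Veh and 170 (86.0 to 395) for SOD1-Veh over WT-Veh. In the Klf1 cluster it was 17.1 (12.6 to 23.8) for SOD1-Nec and 23.2 (17.1 to 32.4) for SOD1-Veh. The difference between the clusters in the genotype effect was 2.55 ± 0.66 on the log2 scale in edgeR, in a fit added after these values were seen. Its unadjusted p was 0.000101, the lowest of 1029 genes, and its adjusted p was 0.104. No gene passed, 0% of those tested, 79 had an unadjusted p below 0.05, and no other tool was run. With haemoglobin left out of the sums it was 2.63 with an adjusted p of 0.000229. Without SOD1-Nec 1 it was 2.69 and passed (adjusted p = 0.0224), without WT-Veh 1 it was 3.47 and without WT-Veh 2 it was 1.94.

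**Figure D3:**
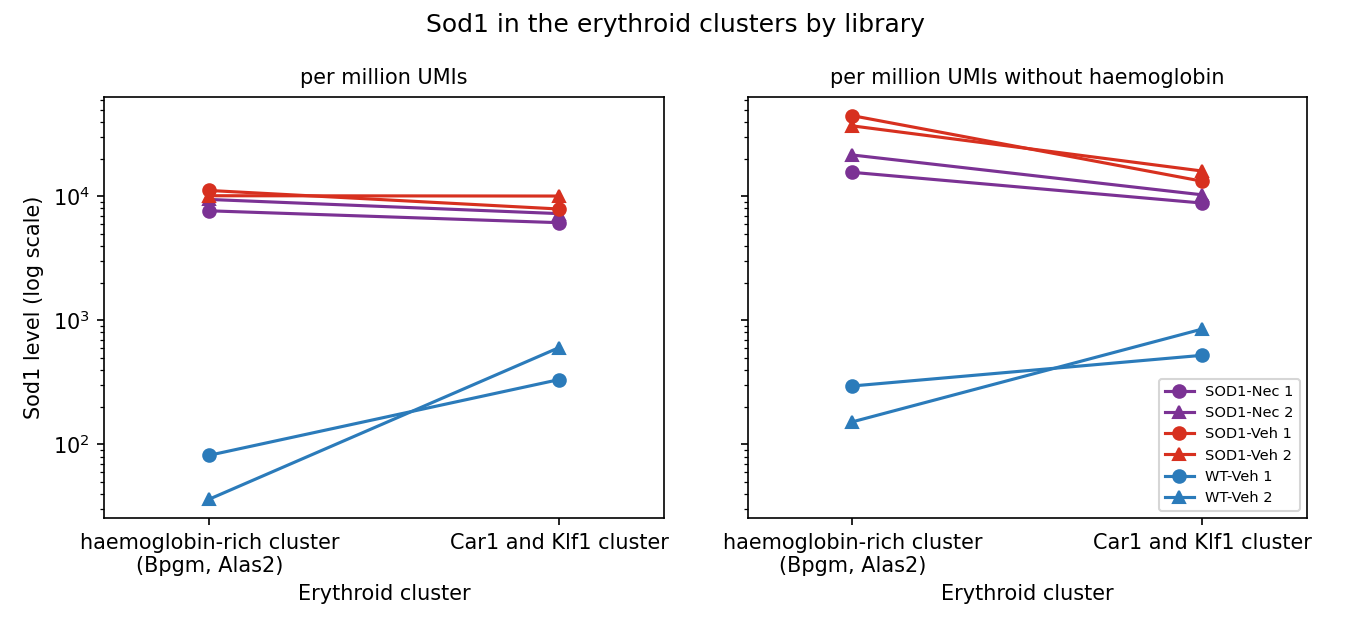
Sod1 level in CPM (log scale) in the haemoglobin-rich Bpgm cluster (left) and the Klf1 cluster (right) of erythroid cells, 1 line a library, over all UMIs in the left panel and without haemoglobin UMIs in the right panel. The mutant lines are nearly level or higher in the Bpgm cluster, and both wild-type lines are lower there, at 81.9 and 36.3 CPM over all UMIs.

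The neutrophil class also held 2 clusters. In the smaller one, led by Clec4d, Cxcr2 and Il1b, WT-Veh had no Sod1 UMI in 30 and 14 cells, and a floor of 3 counts over the group put SOD1-Nec at least 12.9-fold and SOD1-Veh at least 12.7-fold higher. The B cell class joined an early cluster with Vpreb3 and a cluster with Ms4a1 and class II genes. Sod1 in the early cluster was at 2857 and 3151 CPM in SOD1-Nec, 2680 and 3829 in SOD1-Veh, and 254 and 224 in WT-Veh. In the Ms4a1 cluster it was at 1608 and 2307 CPM in SOD1-Nec, 2707 and 4084 in SOD1-Veh, and 432 and 0 in WT-Veh, where 17 cells held none. The 2 microglial clusters overlapped in the mutant libraries, at 1680 to 1954 CPM in the larger and 1463 to 2486 CPM in the smaller.

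The share of cells in which Sod1 was seen depends on depth, so the share expected with each cell thinned to 500 UMIs was also computed, leaving out 299 and 367 shallower cells in SOD1-Nec, 107 and 132 in SOD1-Veh, and 168 and 223 in WT-Veh. Over all retained cells, 68.1% and 73.8% of cells had a Sod1 UMI in SOD1-Nec, 73.2% and 76.7% in SOD1-Veh, and 17.3% and 10.9% in WT-Veh. At 500 UMIs the shares were 67.9% and 74.5% in SOD1-Nec, 64.7% and 72.3% in SOD1-Veh, and 10.4% and 6.55% in WT-Veh. Mutant and wild-type shares did not overlap on either scale, and the 2 mutant groups did.

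Nearly every mutant erythroid cell had a Sod1 UMI at this depth. Free RNA could not be estimated for erythroid cells, since the estimate given below rests on haemoglobin, and 54.5% to 67.4% of mutant barcodes under 200 genes had a Sod1 UMI as well. The thinned share was 92.7% and 94.3% in SOD1-Nec, 94.9% and 94.6% in SOD1-Veh, and 11.6% and 7.00% in WT-Veh. Oligodendrocytes were alike, with 95.1% and 97.0% in SOD1-Nec, 95.0% and 99.6% in SOD1-Veh, and 13.4% and 6.87% in WT-Veh, on 13 to 31 cells. Before thinning, 92.5% and 92.5% of erythroid cells of SOD1-Nec, 100% and 98.3% of SOD1-Veh, and 34.3% and 17.5% of WT-Veh had a Sod1 UMI, at median depths of 797 and 888 UMIs in SOD1-Nec, 1774 and 2044 in SOD1-Veh, and 1988 and 1822 in WT-Veh.

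In microglia a large part of cells showed no Sod1 UMI even in the mutants. The thinned share was 49.6% and 57.9% in SOD1-Nec, 56.8% and 55.3% in SOD1-Veh, and 3.99% and 5.50% in WT-Veh. Without thinning it was 52.0% and 58.2% in SOD1-Nec, 76.6% and 64.1% in SOD1-Veh, and 7.55% and 10.6% in WT-Veh, at median depths of 553 and 477 UMIs in SOD1-Nec, 825.5 and 800.5 in SOD1-Veh, and 597 and 738.5 in WT-Veh. The gap between the mutant groups before thinning was thus not seen at equal depth. Neutrophils had thinned shares of 34.2% and 48.6% in SOD1-Nec, 32.3% and 39.7% in SOD1-Veh, and 5.81% and 1.69% in WT-Veh. A cell without a UMI at this depth is not a cell without the RNA.

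Monocytes and B cells lay between these classes. Monocytes had thinned shares of 69.3% and 73.5% in SOD1-Nec, 62.1% and 70.8% in SOD1-Veh, and 20.8% and 15.2% in WT-Veh. B cells had 74.1% and 72.0% in SOD1-Nec, 63.1% and 74.3% in SOD1-Veh, and 19.6% and 5.73% in WT-Veh. Astrocytes had 55.6% and 88.3% in SOD1-Nec, 84.3% and 86.2% in SOD1-Veh, and 1.91% and 2.59% in WT-Veh, on 10 to 19 cells. The wild-type monocytes of both libraries had higher thinned shares than wild-type microglia, neutrophils and astrocytes.

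**Figure D4:**
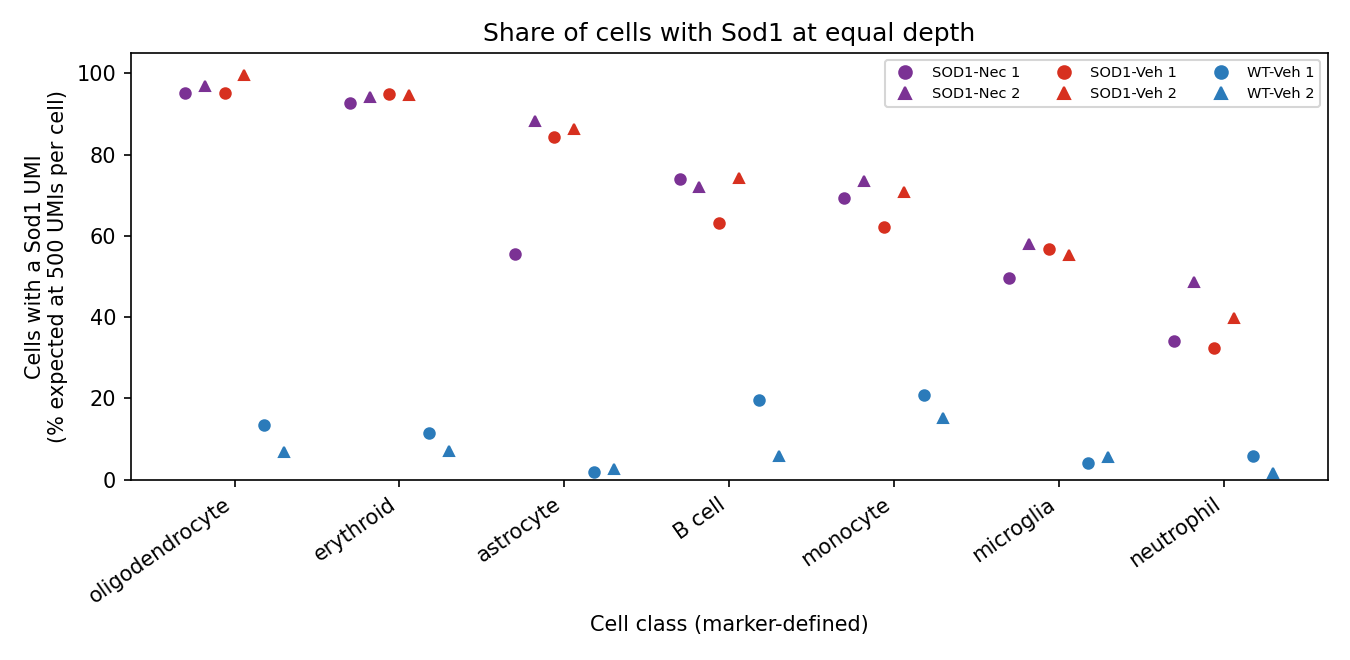
Percent of cells with a Sod1 UMI after thinning each cell to 500 UMIs, by class, 1 point a library. Mutant libraries reach 92.7% to 94.9% in erythroid cells and 32.3% to 48.6% in neutrophils, and wild-type libraries stay at or below 20.8% in the classes the text gives.

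No class of the cord is known to lack Sod1, so none could serve as a blank for free RNA, the RNA from broken cells that enters droplets with other cells. An estimate was taken from haemoglobin, as if all haemoglobin UMIs of a class were free and came with Sod1 in the ratio found in barcodes under 100 genes. The part of microglial Sod1 UMIs estimated as free was 17.7% and 10.4% in SOD1-Nec, and 1.4% and 4.4% in SOD1-Veh. In neutrophils it was 21.02% and 21.6% in SOD1-Nec, and 2.8% and 22.1% in SOD1-Veh. In oligodendrocytes it was 4.0% and 4.6% in SOD1-Nec, and 0.3% and 0.4% in SOD1-Veh. Among the mutant libraries it was highest in neurons of SOD1-Nec 2, at 70.1% of 2 UMIs. The estimate is no bound, since it depends on the barcodes that give the ratio. With those under 200 genes, an alternative added after the values were seen, it was 28.9% and 14.95% in microglia of SOD1-Nec, and 2.5% and 7.3% in those of SOD1-Veh. In neutrophils it was then 34.3% and 31.1% in SOD1-Nec, and 5.1% and 36.6% in SOD1-Veh.

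Sod1 RNA was also read in the barcodes under 200 genes, 17165 of the 21919, which hold small cells, damaged cells and free RNA together. Its level there was 4894 and 6316 CPM in SOD1-Nec, 4166 and 5200 in SOD1-Veh, and 158 and 132 in WT-Veh. The ratio of summed counts was 38.1 (exact 95% interval 33.9 to 43.1) for SOD1-Nec over WT-Veh and 32.1 (28.5 to 36.3) for SOD1-Veh over WT-Veh. All mutant libraries lay above both wild-type libraries. At least 1 Sod1 UMI occurred in 59.1% and 67.4% of these barcodes in SOD1-Nec, 54.5% and 60.7% in SOD1-Veh, and 4.66% and 3.28% in WT-Veh. Haemoglobin made up 39.6% and 57.5% of their UMIs in SOD1-Nec, 26.1% and 22.3% in SOD1-Veh, and 39.7% and 35.9% in WT-Veh, and its part in these levels was not tested beyond leaving it out of the fit below.

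Retained cells were compared with these barcodes in the 4 mutant libraries. In plain CPM the retained cells were lower in both SOD1-Nec libraries and close to the others in SOD1-Veh, where they were at 4169 and 5547 against 4166 and 5200. In edgeR retained cells gave −1.53 ± 0.24 against barcodes under 200 genes (adjusted p = 0.000468, 47.2% of genes past the test). On plain totals the value was −0.20 with an adjusted p of 0.600, and that scaling moved the median of all genes by 1.32. Relative to the median, Sod1 stood at −1.58 with TMM factors and −1.56 on totals. With haemoglobin left out it was −1.45.

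Split by detected genes, the mutant level depended on the group. The bins had no limit on mitochondrial UMIs and kept called doublets, so those from 200 genes hold more barcodes than the retained cells. In barcodes with fewer than 100 genes it was 5210 and 5925 CPM in SOD1-Nec, 3236 and 4230 in SOD1-Veh, and 97.8 and 78.9 in WT-Veh. In those with at least 100 but fewer than 200 genes it was 4769 and 6565 CPM in SOD1-Nec, 4539 and 5719 in SOD1-Veh, and 191 and 167 in WT-Veh. The SOD1-Nec libraries were the higher ones in the lowest bin, and the groups overlapped in the next. Haemoglobin in the lowest bin was 68.8% and 77.7% of UMIs in SOD1-Nec, 36.4% and 30.1% in SOD1-Veh, and 55.1% and 51.4% in WT-Veh.

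Among barcodes with more genes the wild-type level was higher. It was 3387 and 4417 CPM in SOD1-Nec, 4806 and 5502 in SOD1-Veh, and 215 and 220 in WT-Veh for 200 up to 400 genes. It was 3840 and 3720 CPM in SOD1-Nec, 3555 and 4573 in SOD1-Veh, and 343 and 224 in WT-Veh for 400 up to 800 genes. At 800 genes or more it was 4326 and 4558 CPM in SOD1-Nec, 3590 and 6572 in SOD1-Veh, and 347 and 289 in WT-Veh. The ratio of summed counts was 63.4 for SOD1-Nec and 42.7 for SOD1-Veh over WT-Veh in the lowest bin, and 14.0 and 15.5 at 800 genes or more. The bins from 200 genes include the barcodes over 20% mitochondrial UMIs, which were at a mean of 423 CPM in WT-Veh. Class make-up, depth and haemoglobin share also change together over the bins. The parts of all these in the wild-type level and in the ratio were not tested.

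**Figure D5:**
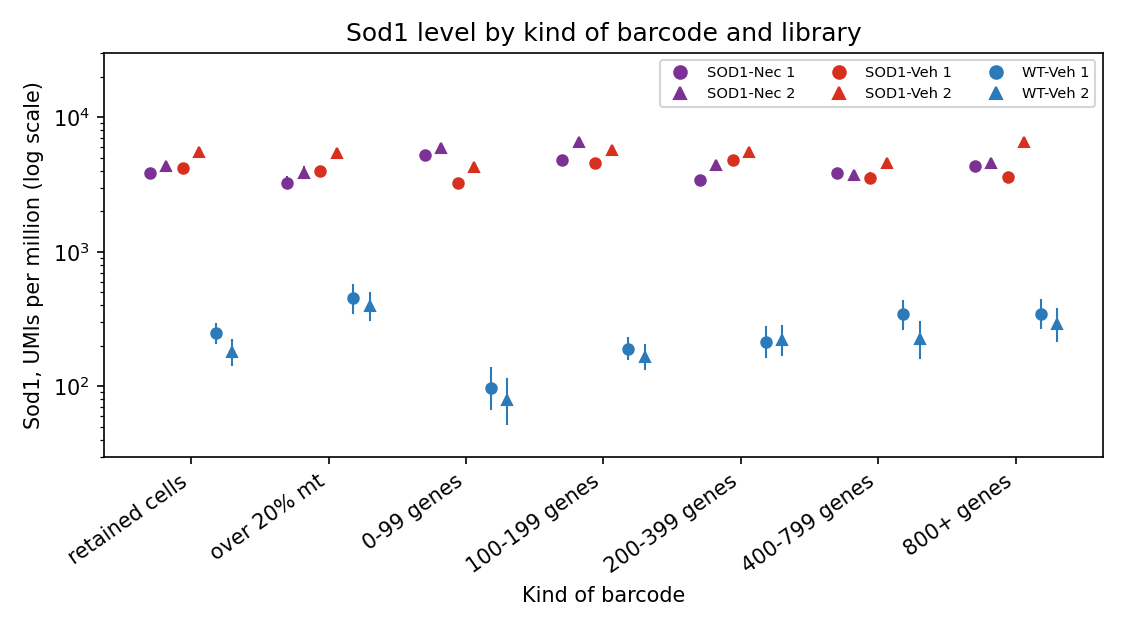
Sod1 level in CPM (log scale) in retained cells, in barcodes with at least 200 genes and over 20% mitochondrial UMIs, and by bins of detected genes, 1 point a library with its exact 95% Poisson interval. The bins have no mitochondrial limit, so those from 200 genes also hold the barcodes over 20%. Mutant libraries stay between 3236 and 6572 CPM throughout, and wild-type libraries are lowest, at 97.8 and 78.9 CPM, in barcodes with fewer than 100 genes.

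The effect of Necrostatin-1s on Sod1 RNA was read as SOD1-Nec against SOD1-Veh, and no class passed the test. Among all retained cells only SOD1-Veh held skeletal muscle cells, so genes called there cannot be assigned to the drug alone. Over all retained cells the log2 fold change was −0.30 ± 0.28, with a 95% interval of −0.90 to 0.31 (edgeR, adjusted p = 0.872, 0.575% of genes past the test). In microglia it was 0.11 ± 0.22, with an interval of −0.34 to 0.56 (edgeR, adjusted p = 0.901, 1.63% of genes past the test). In oligodendrocytes it was −0.36 ± 0.31, interval −0.98 to 0.27 (edgeR, adjusted p = 0.638, 1.69% of genes past the test). The intervals leave room for changes of these sizes in either direction.

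In erythroid cells SOD1-Nec was the lower group, at a log2 fold change of −0.82 ± 0.22 with an interval of −1.29 to −0.35 (edgeR, adjusted p = 0.0914, 1.27% of genes past the test). Both SOD1-Nec libraries lay below both SOD1-Veh libraries, and the call was missed over all genes. On plain totals it was −0.41, and relative to the median of all genes it was −0.81 with TMM factors and −0.80 on totals. With at least 100 genes per barcode the value was −0.68 and passed (adjusted p = 0.0399). It also passed without WT-Veh 1 (−0.85, edgeR, adjusted p = 0.0123) and without WT-Veh 2 (−0.83, adjusted p = 0.0152), fits that leave out a library of neither group. The erythroid cells of SOD1-Nec also had a lower median depth and a lower haemoglobin share than those of SOD1-Veh, as given above. The mean level was 7350 CPM in SOD1-Nec and 9759 in SOD1-Veh, and 11968 and 21267 with haemoglobin UMIs taken out. Leaving haemoglobin out of the fit did not bring the call past the threshold. Beyond this, the part of depth or haemoglobin share in the difference was not tested.

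The remaining classes showed small differences between the mutant groups. B cells gave −0.18 ± 0.31 (interval −0.81 to 0.45, edgeR, adjusted p = 0.881, 0.261% of genes past the test). Monocytes gave 0.09 ± 0.25 (interval −0.43 to 0.62, edgeR, adjusted p = 0.941, 0.771% of genes past the test). Astrocytes gave −0.32 ± 0.35 (interval −1.07 to 0.44, edgeR, adjusted p = 0.864), where 0% of genes passed in edgeR, 31 had an unadjusted p below 0.05 and DESeq2 called 1. Neutrophils gave 0.11 ± 0.32 (interval −0.56 to 0.79, edgeR, adjusted p = 0.903), where 0% passed in edgeR, 123 had an unadjusted p below 0.05 and DESeq2 called 0.

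The genes whose level across classes was most like that of Sod1 were erythroid ones. Likeness was the Pearson correlation of log2(CPM + 10) over 24 points, 6 classes in the 4 mutant libraries, among 3058 genes. Oligodendrocytes, the other class with high Sod1, had too few cells to be among these 6. Erythroid cells stood far above the other classes used, so genes high in erythroid cells were favoured. Points of a library share its depth and those of a class its cells, so these values are a description. Prdx2, a peroxide-reducing enzyme abundant in red cells, had r = 0.910, Bpgm, which makes the red cell metabolite that lowers oxygen affinity, 0.854, Fam220a 0.839, Tmcc2 0.798 and Ubac1 0.791.

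None of these genes was called higher in mutant erythroid cells. Bpgm was lower in SOD1-Nec than in WT-Veh (log2 −2.02, edgeR, adjusted p = 0.0136), as was Tmcc2 (−1.50, adjusted p = 0.0413), though Tmcc2 was not called without SOD1-Nec 1 (−1.20, adjusted p = 0.210). Fam220a at −1.74 (adjusted p = 0.0709), Prdx2 at −0.54 (adjusted p = 0.259) and Ubac1 at −0.23 (adjusted p = 0.777) were not called in edgeR. In SOD1-Veh against WT-Veh none of the 5 was called, with Prdx2 at 0.07, Bpgm at −1.04, Fam220a at −0.57, Tmcc2 at −0.50 and Ubac1 at 0.58. Bpgm and Tmcc2 were among the leading genes of the Bpgm cluster, which held 40.2% and 48.9% of the erythroid cells in SOD1-Nec, 46.8% and 41.7% in SOD1-Veh, and 56.7% and 62.5% in WT-Veh. This share was thus lower in all 4 mutant libraries than in both wild-type libraries, and its part in the erythroid differences was not tested.

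The enzyme's partners were looked up by name. Ccs, the copper chaperone that loads the enzyme, was at 20.1 and 20.2 normalised CPM in SOD1-Nec, 27.7 and 34.0 in SOD1-Veh, and 25.7 and 24.7 in WT-Veh over all cells. It was not called in SOD1-Nec against WT-Veh (log2 −0.32, edgeR, adjusted p = 0.870) or in SOD1-Veh against WT-Veh (0.29, adjusted p = 0.874). Sod2, the mitochondrial superoxide dismutase, was at 36.5 and 51.3 normalised CPM in SOD1-Nec, 57.8 and 65.7 in SOD1-Veh, and 73.3 and 64.6 in WT-Veh. Neither mutant group was called (log2 −0.64, adjusted p = 0.617 for SOD1-Nec and −0.16, adjusted p = 0.920 for SOD1-Veh in edgeR). Sod3, the secreted form, was too low to be tested.

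Genes that work with the enzyme were read in 3 lists, for superoxide and peroxide removal (24 genes), copper delivery and storage (14) and proteins that bind, refold or clear misfolded SOD1 (19). In the fit of all cells 21, 8 and 19 of them were tested. Over all cells and 6 classes, 438 results were obtained in the 3 comparisons, of which 0 were called higher and 6 lower, and 52 had an unadjusted p below 0.05. The called part was 1.37% of these results, beside 0.81% of all 41613 results of the same fits, and the part with an unadjusted p below 0.05 was 11.9%, beside 9.92%. In all cells the list medians for SOD1-Nec over WT-Veh were 0.14, −0.04 and 0.12, and those for SOD1-Veh over WT-Veh were 0.09, −0.10 and −0.05, beside −0.01 and 0.01 over all genes. SOD1-Nec against SOD1-Veh gave 0 calls in 146 results in edgeR, with 17 at an unadjusted p below 0.05, or 11.6%. Over all genes of those fits 0.707% were called and 9.39% had an unadjusted p below 0.05.

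The 6 calls fell on metallothioneins and on glutathione genes. In astrocytes Mt2, which encodes a metal-binding metallothionein, was at 1284 and 1538 normalised CPM in SOD1-Nec, 786 and 1275 in SOD1-Veh, and 5227 and 4352 in WT-Veh. It fell in SOD1-Nec (log2 −1.74, edgeR, adjusted p = 0.0140) and in SOD1-Veh (−2.24, adjusted p = 0.00120) against WT-Veh. Its neighbour in function, Mt1, was at 2769 and 4072 in SOD1-Veh and 9083 and 11588 in WT-Veh astrocytes (−1.60, edgeR, adjusted p = 0.0228). The lower share of astrocyte markers in the mutant libraries of this class, given above, moved with these values, and its part in them was not tested. Over all cells Mt2 fell in SOD1-Veh, at 257 and 213, against 721 and 584 in WT-Veh (−1.47, edgeR, adjusted p = 0.0449). In erythroid cells of SOD1-Nec, Gpx1, a peroxide-reducing enzyme that uses glutathione, was at 3742 and 4543, against 7238 and 9761 in WT-Veh (−1.03, edgeR, adjusted p = 0.0444). Gclm, a subunit of the enzyme that starts glutathione synthesis, was at 372 and 316 in SOD1-Nec, against 720 and 1072 in WT-Veh (−1.35, edgeR, adjusted p = 0.0256). Gclm was at 494 and 546 in SOD1-Veh. It was thus lower in every mutant library than in both wild-type libraries, as was the share of the Bpgm cluster. Between the mutant groups that share overlapped, at 40.2% and 48.9% in SOD1-Nec and 46.8% and 41.7% in SOD1-Veh, while Gclm did not. Gpx1 was at 7630 and 7368 in SOD1-Veh, within the range of WT-Veh. The haemoglobin share of erythroid UMIs, given above, was also lower in SOD1-Nec than in both other groups. The parts of the Bpgm cluster share and of the haemoglobin share in either gene were not tested. The groups compared did not overlap in any of these 6 calls.

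Of these 6, only the astrocyte calls of Mt2 kept their side of the threshold when any 1 library was left out, at −2.004 to −1.64 for SOD1-Nec and −2.64 to −1.93 for SOD1-Veh over WT-Veh. Mt1 in astrocytes was not called without SOD1-Veh 1 (−1.36, edgeR, adjusted p = 0.291) or without WT-Veh 2 (−1.41, adjusted p = 0.127). Mt2 over all cells was not called without SOD1-Veh 1 (−1.60, edgeR, adjusted p = 0.232), SOD1-Veh 2 (−1.34, adjusted p = 0.571) or WT-Veh 1 (−1.29, adjusted p = 0.0801). In erythroid cells Gpx1 was not called without SOD1-Nec 1 (−0.97, edgeR, adjusted p = 0.320) or WT-Veh 2 (−0.83, adjusted p = 0.135). Gclm was not called without SOD1-Nec 1 (−1.54, edgeR, adjusted p = 0.0545), SOD1-Nec 2 (−1.32, adjusted p = 0.0718) or WT-Veh 2 (−1.10, adjusted p = 0.0727). On plain totals both erythroid calls were lost, at −0.48 for Gpx1 and −0.81 for Gclm, where that scaling moved the median of all genes by 0.49.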

How the data were processed

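The authors deposited raw UMI counts, genes by cell barcodes, as 1 table per library, without normalization; they were checked to be whole numbers. The submitters' processing notes name mm9; aligner and annotation: not given in the sources used here. Tables numbered 1 list 18169 genes and those numbered 2 list 18650, and the 17042 shared genes were used. Total UMIs were 1508618 to 1767205 a library.

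Of 21919 barcodes, 4754 had at least 200 genes, 3360 of them had at most 20% mitochondrial UMIs, and 3331 remained after Scrublet marked 29 doublets. Cells were scaled to 10000 UMIs, and 2000 variable genes without Sod1 and 30 components were clustered by Leiden at resolution 1 (scanpy 1.11.5, leidenalg 0.10.2). Counts were summed per library for classes that had 20 or more cells in each library and tested in edgeR 4.0.16 (quasi-likelihood F test, TMM factors, filterByExpr, R 4.3.3) with Benjamini-Hochberg adjustment over all genes tested. A gene was called at an adjusted p below 0.05. DESeq2 1.42.0, other filters, scalings and clusterings, a replicate block and leaving out each library were alternatives. The scripts were tested on simulated data. Intervals and floors cover counting error only; with 2 libraries a group, an exact permutation test could not reach the threshold. Named genes were Sod1, the 5 most like it, Ccs, Sod2, Sod3 and list members called. The gene, the lists and the tests were chosen with earlier results of these data known.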

Additional observations from a re-analysis of the deposited data

Results flagged for a closer look

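Barcodes with at least 200 genes and over 20% mitochondrial UMIs were left out of the comparisons above, and Sod1 was looked up in them because it lay above the level of the wild-type libraries there. They numbered 222 and 187 in SOD1-Nec, 276 and 218 in SOD1-Veh, and 235 and 256 in WT-Veh. Their Sod1 level was 3261.1 and 3873.4 CPM in SOD1-Nec, 3986.4 and 5381.6 in SOD1-Veh, and 452 and 395 in WT-Veh. Haemoglobin was 0.506% to 1.501% of their UMIs. Why their wild-type level was above the 248 and 179 CPM of retained cells was not tested.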

How the results depend on the processing

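Of 246 values of Sod1 in a mutant group over WT-Veh, 244 kept direction and call, at log2 2.27 to 6.26. The other 2 were the B cell values without WT-Veh 1. Of 123 values of SOD1-Nec over SOD1-Veh, 115 kept direction and call, 5 reversed and 3 came past the threshold, at −1.06 to 0.60. Those 3 were erythroid, without WT-Veh 1, without WT-Veh 2 and at 100 genes. Leaving out each library gave 3.22 to 4.61 (SOD1-Nec) and 3.36 to 4.77 (SOD1-Veh) in B cells. For SOD1-Nec against SOD1-Veh it gave −0.43 to 0.21 in B cells, −1.06 to −0.72 in erythroid cells, −0.086 to 0.46 in monocytes and −0.16 to 0.51 in neutrophils. In mutants it gave −0.45 to −0.35 for B cells against the others and −0.035 to 0.22 for microglia minus neutrophils. The joint F was 1.98 to 4.86, and the class-specific genotype effect was −1.37 to 0.85 in astrocytes, −0.66 to 0.90 in B cells, −0.24 to 0.55 in microglia and −0.65 to 0.60 in neutrophils. The cause of these changes was not tested.

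Plain totals gave 0.57 for astrocytes, 0.020 for B cells, −0.24 for monocytes, 1.85 for erythroid cells and −1.40 for neutrophils against the other classes. They also gave F = 5.26, a genotype effect of 0.0040 in astrocytes and 1.71 in erythroid cells, and −0.20 for retained cells against barcodes under 200 genes. Subtracting free RNA, with erythroid cells left out of the mean of the others, gave 0.90 for astrocytes, 0.049 for B cells, −0.31 for microglia, −0.14 for monocytes, 0.68 for astrocytes minus B cells, and −0.031 for microglia of SOD1-Nec against SOD1-Veh. No filter on low counts gave −0.22 for astrocytes, −0.12 for B cells and −0.087 for astrocytes minus B cells. That last step was 0.61 in DESeq2 and 0.59 with Sod1 kept in the clustering, both past the threshold. B cells gave −0.32 at Leiden resolution 0.5. A minimum of 100 genes gave −0.68 in erythroid cells of SOD1-Nec against SOD1-Veh. SOD1-Veh alone against WT-Veh gave F = 6.43 and 1.98 in erythroid cells.

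Chosen after seeing the data, leaving out haemoglobin gave −0.34 for B cells, F = 5.99 and 1.65 for the erythroid genotype effect, and classes of at least 15 cells gave −0.083 for astrocytes.

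Same-numbered libraries did not deviate together (correlations 0.17, −0.26 and −0.18 over 7482 genes). With the replicate number as a block, Sod1 over all cells was 4.24, 4.54 and −0.30 for SOD1-Nec over WT-Veh, SOD1-Veh over WT-Veh and SOD1-Nec over SOD1-Veh, and no Sod1 call changed. Genes called over all cells were 3, 63 and 43 in these comparisons, 1 to 61, 6 to 169 and 0 to 62 over the alternatives, and 5, 65 and 43 with the block. The comparisons with SOD1-Veh include its skeletal muscle cells, which no other group had. Neurons, endothelial and ependymal cells were too few for a test across libraries.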
